A study of Saccharomyces cerevisiae with 4 samples.

Results

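The ergosterol synthesis enzymes examined here are the products of 10 genes, taken by systematic name from the deposited table: ERG13 (YML126C), HMG1 (YML075C), ERG1 (YGR175C), ERG11 (YHR007C), ERG24 (YNL280C), ERG25 (YGR060W), ERG6 (YML008C), ERG2 (YMR202W), ERG3 (YLR056W) and ERG5 (YMR015C). They are 10 of the 6207 open reading frames (ORFs) in the table, taken by pathway name and not by a threshold on any value, though with earlier results of these data known. Of the 10 genes, 9 had a value on each of 4 arrays. ERG24, which encodes the sterol C-14 reductase, had a value on 0 arrays, as did 767 ORFs (12.4%), and is not described further.

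The samples compared were wild-type Saccharomyces cerevisiae given Zymolyase 100T at 5 units/ml for 3 h, and the untreated part of the same culture. Zymolyase is a mixture of enzymes that breaks down wall glucan in living yeast. All cells grew in rich medium (YEPD) at 24 °C, and the cultures had been diluted and regrown for 2 h 30 min before they were split. RNA of 2 cultures was hybridised to 4 two-colour arrays with the dyes swapped. The Cy3 dye was on treated RNA for arrays 1 and 3, and the Cy5 dye for arrays 2 and 4. The labels call the strain wild type and give no strain name, and they leave the culture of each array unstated.

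Ergosterol is the main sterol of fungal membranes, where it takes the place that cholesterol has in animal cells. Its synthesis joins acetyl-CoA units into mevalonate and then squalene, closes squalene into lanosterol, and trims and desaturates the sterol in a chain of steps in the endoplasmic reticulum, several of which need molecular oxygen and haem. In yeast the transcription factors Upc2 and Ecm22 raise the expression of many of these genes when sterol is scarce, and the pathway is the target of azole, allylamine and morpholine antifungals.

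The deposited values are log ratios of the 2 channels, read here as log2 because the base is not stated. The ratios were turned by the dye of the treated RNA to give the arrays a common direction. The numerator is not labelled, so the overall sign was set to make SLT2 (YHR030C) positive. SLT2 encodes the MAP kinase that responds to damage of the wall, and it had 2.14, 2.39, 2.18 and 2.31 on arrays 1 to 4. A positive log2 ratio therefore marks the side of SLT2. Since SLT2 is known to be induced by wall damage, that side is likely the higher one in treated cells, but the labels do not settle it. SLT2 lay at 2.25 ± 0.11 (SD over 4 arrays), a 4.77-fold difference, with an adjusted p of 2.78e-05 in limma.

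None of the 9 measured ergosterol enzyme genes passed the test between treated and untreated cells. The count was 0 of 9 on the side of SLT2, where 4.56% of the 4543 ORFs tested were called, and 0 of 9 on the opposite side, where 1.39% were called (5.94% on either side). In limma, 0 of the 9 had an unadjusted p under 0.05, against 19.3% of all ORFs. Their mean log2 ratios ran from -0.23 for ERG5 to 0.24 for ERG1, with a median of 0.02, beside a median of -0.03 over all ORFs tested. Adjusted p values ran from 0.358 to 0.953. The median size of a mean, sign ignored, was 0.076 for these genes and 0.135 for all ORFs.

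**Figure D1:**
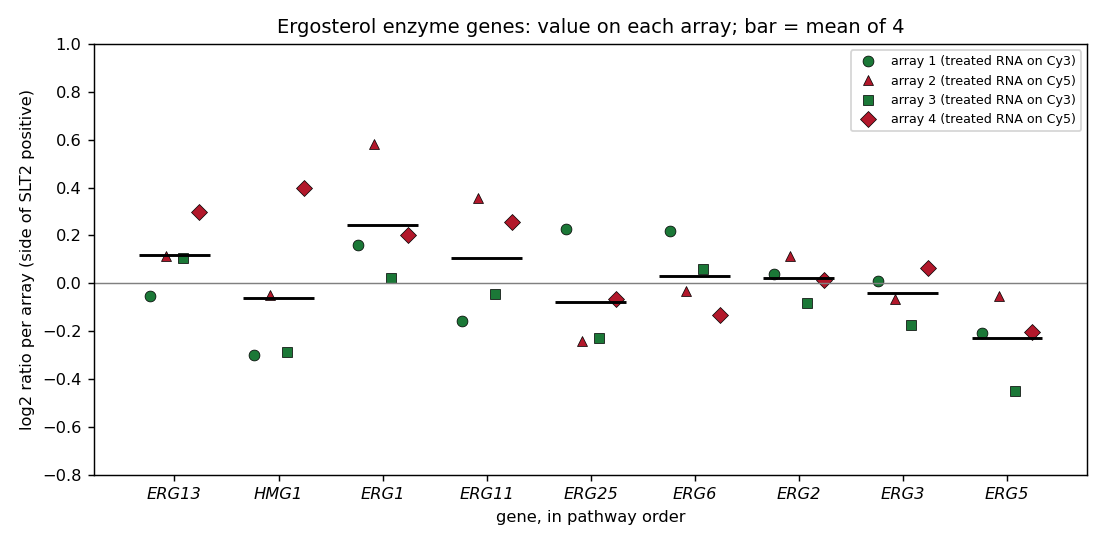
Log2 ratio of treated and untreated RNA on each of 4 arrays for the 9 measured ergosterol enzyme genes, in pathway order, with the side of SLT2 positive. Points are arrays, coloured by the dye of treated RNA, and black bars are means of 4 arrays. Of the 36 values 18 lie above 0 and 18 below, and all lie between -0.45 and 0.58.

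The early steps make mevalonate. ERG13, the gene of the HMG-CoA synthase, had -0.05, 0.11, 0.11 and 0.30 on arrays 1 to 4. Array 1 lay just below 0 and the other arrays above it, for a mean of 0.12 ± 0.14 (SD over 4 arrays). HMG1, which encodes one of a pair of HMG-CoA reductases and catalyses the step that statins block, had -0.30, -0.05, -0.29 and 0.40. Its array 4 alone was positive, and the mean of -0.06 ± 0.33 had the widest spread of the 9 genes. The adjusted p in limma was 0.688 for ERG13 and 0.866 for HMG1.

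ERG1 encodes squalene epoxidase, the target of terbinafine and the enzyme that adds the oxygen later kept as the sterol hydroxyl. It had 0.16, 0.58, 0.02 and 0.20 on arrays 1 to 4, all on the side of SLT2, with array 2 the highest. Its mean of 0.24 ± 0.24 was the largest of the group in size over 4 arrays. Fits with an array left out had a dye term and weighted both dye orientations equally. Their ERG1 estimate was 0.148 without array 2 and 0.208 without array 1. The ERG5 estimate was larger in size in those same fits, at -0.266 and -0.288. These estimates are not means of the arrays left. The 95% interval of the ERG1 mean over 4 arrays ran from -0.05 to 0.54, which is 0.965-fold to 1.45-fold. Its adjusted p in limma was 0.358. Across all ORFs tested, 1220 had a mean at least as large in size.

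Removal of the extra methyl groups of lanosterol was represented by ERG11 and ERG25. ERG11, the cytochrome P450 lanosterol demethylase that azole drugs inhibit, had -0.16, 0.36, -0.04 and 0.26 on arrays 1 to 4. Both arrays with treated RNA on Cy3 were negative and both with it on Cy5 were positive, so the mean of 0.10 ± 0.24 averages opposite signs. ERG25, the C-4 methyl oxidase, had 0.23, -0.24, -0.23 and -0.07, with array 1 alone on the positive side and a mean of -0.08 ± 0.22. Neither passed, at an adjusted p of 0.716 for ERG11 and 0.807 for ERG25 in limma.

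The late steps give the sterol its side chain and double bonds. ERG6, the sterol C-24 methyltransferase, an enzyme that animals lack, had 0.22, -0.03, 0.06 and -0.13 on arrays 1 to 4. Its values straddled 0, with a mean of 0.03 ± 0.15. ERG2, the C-8 isomerase, had 0.04, 0.11, -0.08 and 0.01, the tightest set of the 9, with a mean of 0.02 ± 0.08. ERG3, the C-5 desaturase, had 0.01, -0.07, -0.17 and 0.06 and a mean of -0.04 ± 0.10. These 3 genes were the closest to 0, and their adjusted p in limma lay between 0.901 and 0.953.

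ERG5, the cytochrome P450 that desaturates the side chain at C-22, had -0.21, -0.05, -0.45 and -0.20 on arrays 1 to 4. All arrays lay opposite to SLT2, with array 3 the lowest. The mean was -0.23 ± 0.16, the 95% interval ran from -0.51 to 0.06, and the adjusted p in limma was 0.377. ERG1 and ERG5 were the only 2 of the 9 with 1 sign on all 4 arrays, a property of 28.5% of all ORFs tested (13.1% on the side of SLT2 and 15.3% opposite).

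Ordered by mean, the genes ran ERG1, ERG13, ERG11, ERG6, ERG2, ERG3, HMG1, ERG25 and ERG5. Between neighbours in that order the mean difference over the 4 arrays was 0.008 to 0.15, and in 0 of the 8 neighbouring pairs did it exceed the SD of the difference between arrays. The ends of the order were farther apart. ERG1 exceeded ERG5 on 4 of 4 arrays, by 0.37 to 0.63 and by 0.47 ± 0.12 on average. That pair was picked as the extremes, so the difference is a description and was not tested.

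The intervals give the range of differences that the fit allowed. They rest on 2 culture means and on a variance drawn toward one shared by all ORFs. Their widths were thus alike, at 0.551 to 0.589 for the 9 genes and a median of 0.569 over all ORFs. The SD over 4 arrays of the 9 genes ran from 0.08 to 0.33. For all 9 genes the 95% interval held 0. Its outermost bounds over the 9 were -0.51 and 0.54, so the widest differences it allowed were 1.43-fold opposite to SLT2 and 1.45-fold on its side. The smallest mean of any of the 270 ORFs called was 0.50 in size, so differences of the size seen in the ergosterol genes were below what the test called anywhere in the table. A missed threshold does not show that these transcripts were equal in treated and untreated cells.

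**Figure D2:**
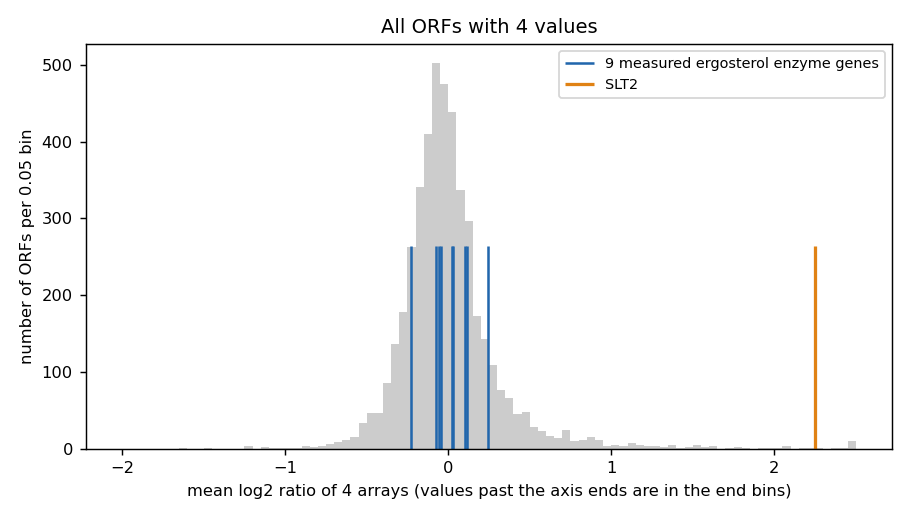
Histogram of the mean log2 ratio of the 4543 ORFs with 4 values, in bins of 0.05, with the 9 measured ergosterol enzyme genes as blue lines and SLT2 as an orange line. The blue lines fall between -0.23 and 0.24, in the central peak, where 73.1% of all ORFs have a mean smaller in size than that of ERG1, while SLT2 lies at 2.25.

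The remaining pathway genes were read from a list of 14, all with 4 values. Of these, 0 were called on either side, where 5.94% of all ORFs tested were. Their means lay above 0 for 7 and below for 7, with a median of 0.001. Those nearest to a call were ERG20, IDI1 and ERG10. ERG20, the farnesyl pyrophosphate synthase gene, had 0.62, 0.13, 0.63 and 0.04 on arrays 1 to 4. All lay on the side of SLT2 and arrays 1 and 3 were the high ones, for a mean of 0.35 ± 0.32 and an adjusted p of 0.144 in limma.

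IDI1, the isopentenyl diphosphate isomerase gene, had -0.13, -0.37, -0.18 and -0.47, all opposite to SLT2, for a mean of -0.29 ± 0.16 and an adjusted p of 0.240. The isomerase gene and that of the synthase that uses its product thus had means of opposite sign. ERG10, which encodes the acetoacetyl-CoA thiolase at the head of the pathway, had 0.30, 0.39, 0.44 and -0.03, with array 4 alone below 0 and a mean of 0.28 ± 0.21 (adjusted p of 0.268). MVD1, the mevalonate pyrophosphate decarboxylase gene, had -0.34, 0.21, -0.40 and -0.39 and a mean of -0.23 ± 0.29. The unadjusted p in limma was under 0.05 for ERG20 (0.0183) and IDI1 (0.0444) and for no other of the 23 measured pathway genes.

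The rest of this list lay closer to 0. HMG2, the second HMG-CoA reductase gene, had a mean of -0.15 ± 0.18. Like HMG1 it was positive on array 4 alone, and signal shared between these related genes was not tested. The mevalonate kinase gene ERG12 had -0.12 ± 0.11, negative on all arrays, and the phosphomevalonate kinase gene ERG8 had 0.16 ± 0.05, positive on all. The squalene synthase gene ERG9 had 0.09 ± 0.25.

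The lanosterol synthase gene ERG7 had -0.84, -0.27, 0.21 and 0.30 on arrays 1 to 4, the widest spread in the pathway, with arrays 1 and 2 on one side of 0 and arrays 3 and 4 on the other. Its mean was -0.15 ± 0.52, and the estimate was 0.11 in a fit with a dye term and without array 1. Among the C-4 demethylation partners of ERG25, the dehydrogenase gene ERG26 had 0.13 ± 0.14, the ketoreductase gene ERG27 0.11 ± 0.12, the scaffold gene ERG28 -0.09 ± 0.23 and ERG29 0.15 ± 0.25. ERG4, the C-24(28) reductase of the last step, had -0.09 ± 0.16.

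By section, the 10 genes from acetyl-CoA to squalene had a median mean of 0.015 and the 13 measured genes from squalene to ergosterol one of 0.021. Neither section lay on one side. Means were positive for 5 of the 10 and 7 of the 13. Of the 92 values of the 23 measured pathway genes 0 reached 2-fold, the outermost being -0.84 and 0.63. Counted by ORF, 7.37% of all ORFs reached 2-fold on at least 1 array and 1.83% in the mean. A count of 0 of 23 genes is little below these shares.

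**Figure D3:**
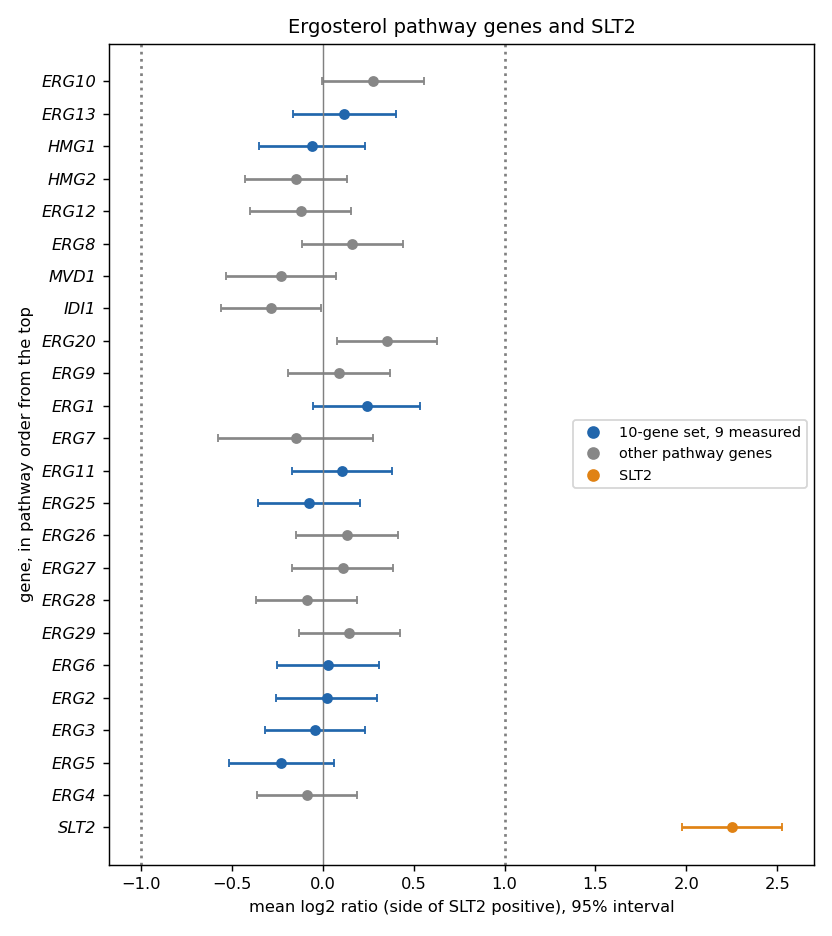
Mean log2 ratio (points) and its 95% interval (bars, the outer bounds of both culture pairings) for 23 ergosterol pathway genes in pathway order from the top, and for SLT2 at the bottom. Dotted lines mark 2-fold. The intervals of the pathway genes end between -0.58 and 0.63, inside the dotted lines, and that of SLT2 runs from 1.98 to 2.53.

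Which arrays share a culture mattered for the calls. In the fit used above each gene kept the larger p of the 2 possible pairings. The pairing of arrays 1 and 2, and of arrays 3 and 4, gave the same counts as that fit. It called 270 ORFs and 0 of the 9 ergosterol enzyme genes. With arrays 1 and 4 as one culture and arrays 2 and 3 as the other, 27.1% of all ORFs were called, and 2 of the 9 ergosterol enzyme genes were among them. These were ERG1 on the side of SLT2 (adjusted p of 0.0420 in limma) and ERG5 opposite (adjusted p of 0.0491). In that pairing 3 of the other 14 pathway genes passed, ERG20 (0.00618) and ERG10 (0.0373) on the side of SLT2 and IDI1 (0.0180) opposite. A share of 2 of 9 is near the share of all ORFs.

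Values also differed by dye orientation. For 5 of the 9 genes, the distance of each orientation from the mean was larger than the mean itself, near the share of 47.3% over all ORFs. HMG1 averaged -0.29 with treated RNA on Cy3 and 0.17 with it on Cy5, and ERG11 averaged -0.10 and 0.31 in the same order. A dye term fitted to the 4 arrays in limma had an adjusted p of 0.219 or more for all 9 genes. It passed an adjusted p of 0.05 for 0 of the 4543 ORFs, so this does not set the 9 apart. The unadjusted p was under 0.05 for 1 of the 9, ERG11 (0.0433), against 21.5% of all ORFs. ERG1 and ERG5, with 1 sign on all 4 arrays, had to keep it in both orientations. Their averages were 0.09 and 0.39 for ERG1 and -0.33 and -0.13 for ERG5. ERG13 (0.03 and 0.21) and ERG3 (-0.08 and -0.002) also had 1 sign in both, and the rest of the 9 did not. Averages over balanced dyes cancel such an effect in the mean, but with 2 arrays an orientation its size is poorly known.

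**Figure D4:**
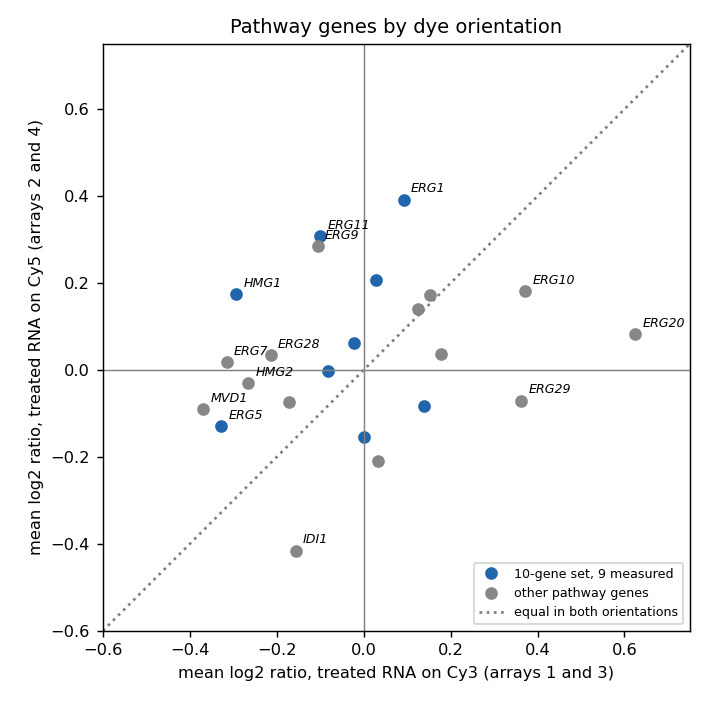
Mean log2 ratio of 23 ergosterol pathway genes with treated RNA on Cy3 (arrays 1 and 3, horizontal axis) and on Cy5 (arrays 2 and 4, vertical axis). The dotted diagonal marks equal values, and genes far from 0 are named. ERG11 and HMG1 lie at upper left, with opposite signs by dye, and ERG20 lies at far right (0.62 and 0.08). ERG1 and ERG5 are among the genes with 1 sign in both.

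Regulators of sterol genes were covered in part. Of a list of 15 regulators of sterol genes and of HMG-CoA reductase turnover, 12 had 4 values, with a median of 0.10. In limma 0 were called on either side, where 5.94% of all ORFs were. An unadjusted p under 0.05 was found for 1 gene, ECM22, where 19.3% of all ORFs had one. ECM22, which encodes one of the sterol-responsive activators, was the lowest, with -1.09, 0.11, -0.38 and -0.03 on arrays 1 to 4. Array 1 stood lowest, the mean was -0.35 ± 0.54 and the adjusted p in limma was 0.186. In fits with a dye term, which weight both dye orientations equally, the ECM22 estimate was -0.17 without array 1 and -0.52 without array 3. These estimates are not means of the arrays left. HRD1, the ubiquitin ligase gene known for degrading Hmg2, was the highest at 0.30 ± 0.47. It had 0.69, 0.25, 0.58 and -0.34 on arrays 1 to 4, with array 4 alone below 0. Its estimate in the fits with a dye term was 0.15 without array 2 and 0.44 without array 4. UPC2, the gene of the other activator, was measured on array 2 (0.07) and array 4 (0.08) alone and did not enter the test.

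HAP1, the haem-responsive activator gene, had 0.83 on array 1 and 0.84 on array 3, where treated RNA carried Cy3, and -0.43 on array 2 and -0.53 on array 4, where it carried Cy5. Its mean of 0.18 therefore averages opposite signs by dye. UPC2 and HAP1 stand outside the rule for named genes, and their values were known when they were picked.

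Partners that supply electrons or haem to ERG11 and other oxygen-dependent steps had 0 of 10 measured genes called in limma (5.94% of all ORFs). An unadjusted p under 0.05 was found for 1, HEM13 (19.3% of all ORFs). The median was -0.09, with 9 means below 0 and 1 above, where 56.7% of all ORFs had a mean below 0. HEM13, the gene of the oxygen-dependent coproporphyrinogen oxidase, had -0.31, -0.38, -0.39 and -0.33 on arrays 1 to 4. The arrays lay close together opposite to SLT2, at -0.35 ± 0.04, and the adjusted p in limma was 0.144. HEM13 passed with the 4 arrays as if independent and a dye term (0.0430), a fit that called 11.3% of all ORFs. HEM15, the ferrochelatase gene, was the highest at 0.24 ± 0.12. NCP1, the P450 reductase gene that serves Erg11, ran from -1.30 on array 1 to 0.68 on array 4 and was also named after its values were seen.

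Sterol ester, uptake and transport genes had 14 of 24 with 4 values, with a median of -0.007. In limma 0 of them were called (5.94% of all ORFs) and 1, OSH2, had an unadjusted p under 0.05 (19.3% of all ORFs). OSH2, an oxysterol-binding protein gene, was the lowest at -0.40 ± 0.36 (adjusted p of 0.186 in limma). In fits of 3 arrays as independent with a dye term, the OSH2 estimate was -0.19 without array 1 and -0.61 without array 3. It passed without array 3 (adjusted p of 0.0437 in limma), where 5.64% of all ORFs did. With robust empirical Bayes it passed too (0.0263), where 12.8% did. The steryl ester hydrolase gene YEH1 was the highest at 0.21 ± 0.28. The steryl ester synthase gene ARE2 and the sterol importer gene PDR11 had values on 0 arrays. With arrays 1 and 4 taken as one culture and arrays 2 and 3 as the other, 2 of 12 regulators, 3 of 10 electron and haem partners and 3 of 14 ester and transport genes passed, where 27.1% of all ORFs did.

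The ORFs whose 4 values came nearest to those of ERG1, the ergosterol enzyme gene with the smallest adjusted p, were ADH6, DIG2, GAL2, SNA3 and VPS17. Their Euclidean distances over the 4 arrays were 0.11 to 0.16 on the log2 scale. ADH6, an alcohol dehydrogenase gene, had 0.08, 0.55, 0.01 and 0.27 on arrays 1 to 4. With 4 arrays this is a coarse comparison. That 0 of the 5 passed the test follows from picking them for closeness to ERG1, which was not called. With arrays 1 and 4 as one culture and arrays 2 and 3 as the other, 27.1% of all ORFs passed. GAL2 (adjusted p of 0.0324 in limma) and VPS17 (0.0397) were among them, and ADH6, DIG2 and SNA3 were not.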

How the data were processed

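The authors deposited 1 table of log2 ratios (base assumed) with a column per array and no intensities, so how far each spot lay above background is unknown. Precision is limited by the small number of arrays. The sources used here do not give the normalization, background correction, filters, log base or numerator. Signs were turned by dye, and 2 control rows were left out. Of 6207 ORFs, 5654 matched the RefSeq table of assembly R64 by locus tag. Array medians after turning were 0.02, -0.03, -0.05 and -0.03, and 16.0% to 21.3% of ORFs were empty on an array.

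The test was limma 3.58.1 in R 4.3.3 (lmFit, eBayes) on the 4543 ORFs with 4 values. The arrays of a culture were averaged (n = 2 cultures), both pairings that hold both dyes were fitted, and each ORF kept its larger p and the outer bounds of its 95% intervals. Benjamini-Hochberg adjustment ran over all 4543, with a threshold of 0.05.

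The genes and lists were chosen with earlier results of these data known. Named were the 10 genes, SLT2, the other 14 pathway genes, the called genes and the highest and lowest of each other list, and the 5 profiles nearest to that of the ergosterol gene with the smallest adjusted p. Alternatives were each pairing, 4 arrays as if independent with or without a dye term, centring, scaling, robust empirical Bayes, quantile normalization, inclusion of ORFs with only 3 values (in the fit with a dye term), thresholds of 0.01 and 0.1, and leaving out each array.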

Additional observations from a re-analysis of the deposited data

Results flagged for a closer look

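Of 42 named genes checked, MVD1 was the only one with an array far from the other 3. It had 0.21 on array 2, against -0.40 to -0.34 on the others. About 1 in 20 sets of 4 values is marked like this by chance.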

How the results depend on the processing

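The count of ergosterol enzyme genes called stayed at 0 on each side in all alternatives but one. The fits other than that one, those without an array included, called 3.65% to 12.8% of all ORFs tested at the threshold of 0.05. At such shares a count of 0 among 9 or 14 genes says little. With arrays 1 and 4 taken as one culture and arrays 2 and 3 as the other, the count was 1 on the side of SLT2 and 1 opposite. The other 14 pathway genes had 2 on the side of SLT2 and 1 opposite in that pairing. They had 1 on the side of SLT2, ERG20, with the 4 arrays as if independent and a dye term (adjusted p = 0.0423 in limma), and still 1 when that same fit also took ORFs with 3 values (0.0453). Of all ORFs tested, 11.3% and 10.6% were called on either side in these 2 fits. On the side of SLT2 the counts were 319 of 4543 and 338 of 4979. Leaving out each array gave counts of 0 throughout. Those fits took 3 arrays as independent with a dye term. Their estimate averages both dye orientations, so an array alone in its orientation counts as much as the other arrays together. It is not the mean of the arrays left. This estimate differed in sign from the mean of 4 arrays for 7 pathway genes, all uncalled. For HMG1 it ran from -0.17 to 0.052 (0.052 without array 2), and for ERG7 from -0.41 to 0.11 (0.11 without array 1). ERG25 ran from -0.19 to 0.0374 (0.0374 without array 3) and ERG28 from -0.18 to 0.0023 (0.0023 without array 3). ERG6 ran from -0.011 to 0.0681 (-0.011 without array 1) and ERG3 from -0.0873 to 0.0033 (0.0033 without array 3). For ERG2 the range was -0.0088 to 0.05 (-0.0088 without array 1 and -0.0047 without array 2). The cause was not tested. Each ratio already pairs treated RNA with the untreated part of its culture, and a further block by replicate number could not be fitted because the labels give 1 group of arrays.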

Other observations

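Other lipid genes were read from 3 more lists, chosen with earlier results of these data known. Among sphingolipid synthesis and turnover genes, 2 of 20 measured were called, both on the side of SLT2, where 4.56% of all ORFs tested were called, and the median over the list was -0.03. ISC1, which encodes the phospholipase C of inositol sphingolipids, had 1.43, 0.68, 1.79 and 1.43 on arrays 1 to 4. All were on the side of SLT2 with array 2 the lowest, and the mean was 1.33 ± 0.47 (adjusted p of 0.00155 in limma). SUR1, a catalytic subunit gene of mannosylinositol phosphorylceramide synthesis, had 0.93, 0.88, 0.91 and 0.87. Its arrays nearly coincided, at 0.90 ± 0.03 (adjusted p of 0.00318). The lowest was TSC10, the 3-ketosphinganine reductase gene, at -0.36 ± 0.24, not called. It passed with the 4 arrays as if independent and a dye term (adjusted p of 0.0459 in limma), where 11.3% of all ORFs did.

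Fatty acid synthesis genes had 0 of 11 called in limma, where 5.94% of all ORFs were. An unadjusted p under 0.05 was found for 2, where 19.3% of all ORFs had one. Means ran from FAA4 at -0.46 ± 0.44 to FAA1 at 0.38 ± 0.26, both acyl-CoA synthetase genes. Genes of other isoprenoid branches had 0 of 12 called in limma, and an unadjusted p under 0.05 for 1, beside the same shares of all ORFs. RAM1, the farnesyltransferase subunit gene, had -0.43, -0.16, -0.64 and -0.74 on arrays 1 to 4, all opposite to SLT2, for a mean of -0.49 ± 0.26 and an adjusted p of 0.0829. RAM1 passed without array 2 in a fit of the other arrays as independent with a dye term (0.0394), which called 4.62% of all ORFs. With robust empirical Bayes, which called 12.8% of all ORFs, RAM1 (0.00339), FAA4 (0.00729) and FAA1 (0.0385) passed. COQ1 was the highest of that list at 0.24 ± 0.24. With arrays 1 and 4 taken as one culture and arrays 2 and 3 as the other, 8 of 20 sphingolipid, 3 of 11 fatty acid and 2 of 12 isoprenoid branch genes passed, where 27.1% of all ORFs did.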
